A study of Mus musculus with 8 samples.

Results

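Sinusoidal endothelial marker genes are 10 genes known for high expression in the cells that line liver sinusoids: Stab1, Stab2, Lyve1, Clec4g, Dnase1l3, Bmp2, Oit3, Fcgr2b, Gpr182 and Mrc1. They were chosen by name, with earlier results of these data known. Each is represented by its probe set with the highest mean among probe sets annotated to exactly 1 gene symbol. All 10 were measured, of 19937 genes in all. Expression was measured in 4 c-MYC liver tumours and 4 control livers of mice, with 1 array per sample in 1 colour. The tumours arose in mice in which human c-MYC was overexpressed in the liver from the CEBPB-LAP promoter under doxycycline control, and they were collected at the humane endpoint. The LAP promoter is known as a hepatocyte promoter, and the origin of the endothelial cells in these tumours was not measured. The control samples were normal livers of matched mice. The treatment label is the same on all 8 samples, controls included. The labels do not say whether control mice carried a transgene or received doxycycline, and they give no strain, age or sex. Nor do they say whether each tumour came from a separate mouse, and the p-values cover the spread between the 8 samples alone, which may be partly technical.

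Liver sinusoids are lined by a discontinuous endothelium with open pores and almost no basement membrane. Its cells clear macromolecules from blood through scavenger receptors, lectins and an Fc receptor, and they send signals such as BMP2 to neighbouring hepatocytes. Several of the receptors are shared with other cells: Mrc1 and Stab1 are also made by macrophages, and Lyve1 by lymphatic endothelium and some tissue macrophages.

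Values are log2 array signals as deposited, and changes are tumour minus control on that scale, with the SE from limma. Array medians over all probe sets lay between 6.33 and 6.44. The table holds no detection call, so 1027 olfactory receptor genes served as a guide to low signal. The 95th percentile of their group means was 6.12 in tumours and 6.26 in controls. The control means of all 10 marker genes were above that level, and the tumour means of Dnase1l3 and Bmp2 were below it. The tumour means of Clec4g (6.15), Fcgr2b (6.19) and Oit3 (6.26) were little above it. Among genes named here from lists other than the general endothelial one, Adgrg6, Bmp10, Cd3g and Flt4 were below it in both groups. Cd34, Epcam, Esm1, Fcgr4 and Ms4a7 were below it in controls, and Adam23, C6, Gdf2, Hgf, Meis2, Pigr, Rspo3 and Wnt2 in tumours. How far low signal limits the changes of all these genes was not tested. In whole tissue, fewer cells of a type and less RNA per cell cannot be told apart.

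Of the 10 marker genes, 7 were lower in tumours at an adjusted p under 0.05 in limma, against 12.7% of all genes, and none was higher, against 16.2% of all genes (9 were lower and 0 higher at an unadjusted p under 0.05). All 7 were at least 2-fold lower, which held for 4.68% of all genes. They are Dnase1l3, Clec4g, Bmp2, Fcgr2b, Stab2, Gpr182 and Oit3. The other 3, Mrc1, Stab1 and Lyve1, did not pass. All 4 tumours lay below all 4 controls for 8 of the 10 genes, the 7 above and Stab1, against 13.9% of all genes, and none had all tumours above all controls, against 16.3% of all genes. The median change of the 10 genes was -1.39, beside -0.04 over all genes. Since the genes were chosen with earlier results of these data known, these counts are a description only.

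**Figure D1:**
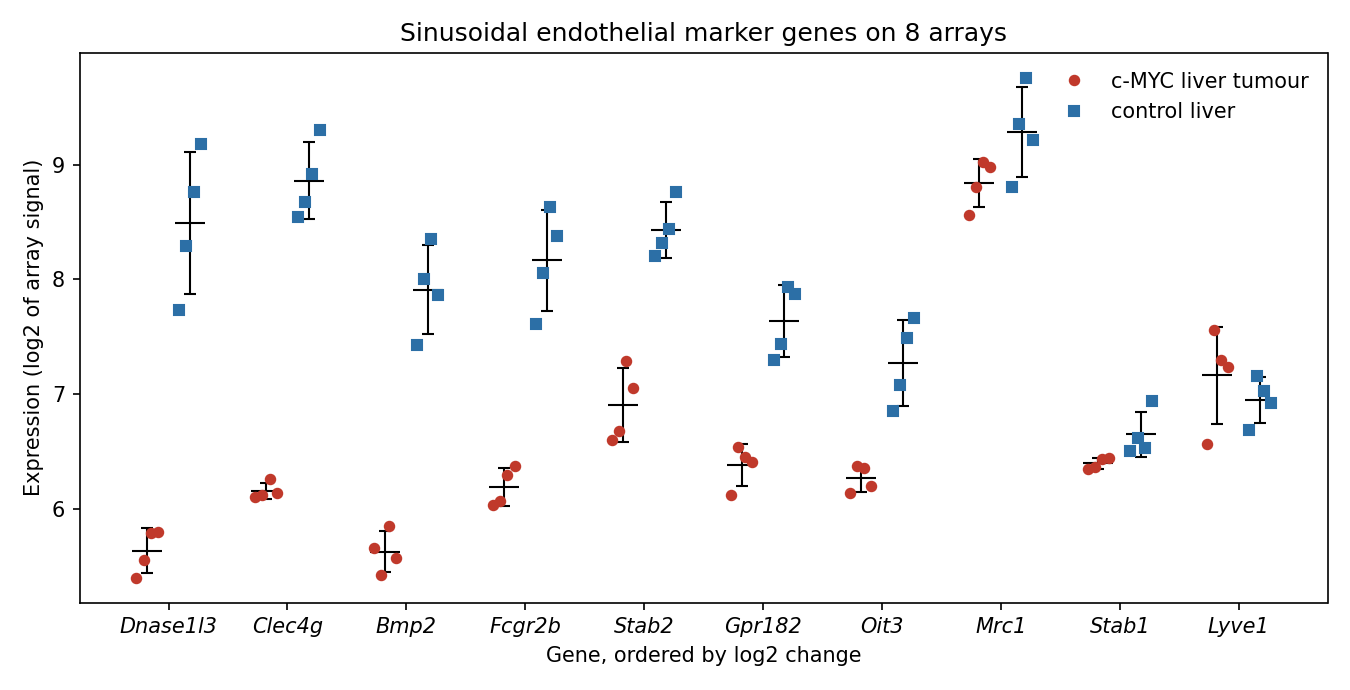
Log2 signal (vertical axis) of the 10 marker genes on each array, with c-MYC liver tumours (circles) to the left of control livers (squares) and genes ordered by their change. Bars give the mean ± SD of 4 arrays. The groups stand apart for Dnase1l3, Clec4g, Bmp2, Fcgr2b, Stab2, Gpr182 and Oit3, lie close together for Stab1, and overlap for Mrc1 and Lyve1.

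Stab2 and Stab1 encode stabilin-2 and stabilin-1, a pair of related large scavenger receptors that take up hyaluronan or modified lipoproteins and other ligands. Stab2 read 6.59, 6.67, 7.29 and 7.05 in tumours 1 to 4, against 8.20, 8.32, 8.44 and 8.76 in controls 1 to 4. The highest tumour was below the lowest control. Stab2 was 2.88-fold lower in tumours (log2 change -1.53, SE 0.17, adjusted p = 7.98e-05 in limma). Stab1 read 6.34, 6.36, 6.43 and 6.44 in tumours, against 6.51, 6.62, 6.53 and 6.94 in controls. Every tumour lay below every control, but by little, and the change did not pass (-0.25, SE 0.11, 95% interval -0.50 to -0.01, adjusted p = 0.124 in limma). Without control 4 it was -0.16. The 95% intervals of the changes of Stab2 (-1.92 to -1.14) and Stab1 did not overlap. Stab1 was near the olfactory receptor level in both groups, with means of 6.39 in tumours (level 6.12) and 6.65 in controls (level 6.26). How far low signal limits the size of its change, and so the contrast with Stab2, was not tested.

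The promoter windows of this pair are shown because the genes belong to 1 family and their measured changes differed in size. Each runs from 250 bases before to 50 bases after the start given by RefSeq (GRCm38.p6), is written 5′ to 3′ on the gene's strand, and has the ETS core GGAAG or its reverse CTTCC in capitals. Stab2 lies at chr10:87007893-87008192 on the minus strand and Stab1 at chr14:31168592-31168891 on the minus strand.
Stab2: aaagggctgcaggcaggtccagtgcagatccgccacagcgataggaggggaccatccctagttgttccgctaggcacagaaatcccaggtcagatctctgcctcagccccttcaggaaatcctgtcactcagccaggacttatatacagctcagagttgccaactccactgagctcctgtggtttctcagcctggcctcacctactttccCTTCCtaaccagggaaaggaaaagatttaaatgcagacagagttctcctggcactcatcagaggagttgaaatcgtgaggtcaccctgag
Stab1: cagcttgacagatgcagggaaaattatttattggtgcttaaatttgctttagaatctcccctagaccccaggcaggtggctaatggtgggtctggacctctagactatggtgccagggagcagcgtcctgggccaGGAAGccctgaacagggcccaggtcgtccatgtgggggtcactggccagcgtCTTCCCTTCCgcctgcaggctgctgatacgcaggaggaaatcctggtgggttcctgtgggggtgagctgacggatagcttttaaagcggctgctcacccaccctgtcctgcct
The Stab2 window holds the ETS core at 1 position and the Stab1 window at 3. The letters TGCTGA, the first part of the motif of MAF factors, occur in the Stab1 window and not in the Stab2 window. They occur in 19.5% of all windows, and no link between these sequences and the changes was tested.

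Lyve1 encodes a hyaluronan receptor that also marks lymphatic vessels. It read 6.56, 7.56, 7.30 and 7.23 in tumours, against 6.69, 7.16, 7.03 and 6.92 in controls. In 3 tumours it was above every control and in tumour 1 below every control, so the groups overlapped. The change was 0.22 (SE 0.20, 95% interval -0.22 to 0.65, adjusted p = 0.482 in limma). Without tumour 1 it was 0.42 and without tumour 2 it was 0.08, and neither passed.

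Clec4g encodes LSECtin, a C-type lectin of sinusoidal endothelium that binds sugars on pathogens and on T cells. It read 6.10, 6.12, 6.26 and 6.14 in tumours, against 8.55, 8.67, 8.92 and 9.30 in controls. The tumours differed little among themselves and all lay far below the controls. Their mean of 6.15 was barely above the olfactory receptor level of 6.12, and how far low signal limits the fall and the spread was not tested. Clec4g was 6.52-fold lower in tumours (log2 change -2.71, SE 0.15, adjusted p = 5.64e-07 in limma). Another Clec4g probe set gave 5.24 ± 0.20 in tumours and 5.38 ± 0.26 in controls (SD, n = 4 each), at the level of olfactory receptor genes in both groups. With the mean of both probe sets in its place the change of Clec4g was -1.42 and still passed. Of the genes that fell, Clec4g is the one with the smallest adjusted p, and its window at chr8:3720602-3720901 on the minus strand is shown in the same form.
Clec4g: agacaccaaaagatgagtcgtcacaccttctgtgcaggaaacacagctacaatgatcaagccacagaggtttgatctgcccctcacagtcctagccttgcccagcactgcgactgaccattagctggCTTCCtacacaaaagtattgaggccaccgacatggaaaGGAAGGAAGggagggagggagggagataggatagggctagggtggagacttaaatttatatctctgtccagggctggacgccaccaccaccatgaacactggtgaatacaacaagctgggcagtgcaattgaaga
It holds the ETS core at 3 positions. RefSeq windows were at hand for 5 of the 10 genes, Clec4g, Stab1, Stab2, Fcgr2b and Mrc1, and all 5 hold the ETS core on either strand, as do 71.4% of the 32851 windows of 300 bases. GATAA, the core of GATA factors, was found in none of the 5 and in 25.4% of all windows, and CACGTG, the E-box that MYC binds, in none of the 5 and in 7.15%. TGCTGA was found in 1 of the 5 and in 19.5%, and the GC box GGGCGG in 1 of the 5, that of Mrc1, and in 35.7%. Each motif was searched on both strands, and the GGAAG copies in Clec4g partly overlap.

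Fcgr2b encodes the inhibitory Fc gamma receptor, which removes small immune complexes from blood in liver sinusoids and is also made by B cells and myeloid cells. It read 6.03, 6.07, 6.29 and 6.37 in tumours, against 7.61, 8.06, 8.63 and 8.37 in controls. All tumours lay below all controls. Fcgr2b was 3.94-fold lower in tumours (log2 change -1.98, SE 0.20, adjusted p = 3.04e-05 in limma). Among 7 other Fc receptor genes 2 were higher, against 16.2% of all genes, and 1 lower, against 12.7%. Fcgr4, an activating receptor, rose by 1.06 (SE 0.19), Fcer1g, the shared signalling chain, rose by 0.93 (SE 0.16), and Pigr, the polymeric immunoglobulin receptor of epithelial cells and hepatocytes, changed by -5.36 (SE 0.22). The median change of the 7 was 0.29.

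Mrc1 encodes the macrophage mannose receptor, which sinusoidal endothelium uses to take up collagen chains and lysosomal enzymes. It read 8.56, 8.80, 9.02 and 8.98 in tumours, against 8.80, 9.36, 9.76 and 9.22 in controls. Control 1 lay within the range of the tumours, and the groups overlapped. The change was -0.44 (SE 0.19, 95% interval -0.86 to -0.02, adjusted p = 0.112 in limma). Without control 1 it was -0.60 and passed (adjusted p = 0.0209 in limma), while over all single arrays left out the adjusted p ranged up to 0.268.

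Dnase1l3 and Bmp2 encode secreted proteins. Dnase1l3 is a nuclease that digests DNA in circulating chromatin. It read 5.40, 5.56, 5.79 and 5.80 in tumours, against 7.73, 8.29, 8.76 and 9.18 in controls. The tumours lay in the range of olfactory receptor genes, and the lowest control was well above them. Dnase1l3 was 7.25-fold lower in tumours (log2 change -2.86, SE 0.26, adjusted p = 1.65e-05 in limma).

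Bmp2 encodes a bone morphogenetic protein that, in mouse liver, comes mainly from endothelial cells and induces the iron hormone hepcidin in hepatocytes. It read 5.65, 5.43, 5.85 and 5.57 in tumours, against 7.42, 7.999, 8.36 and 7.87 in controls. No tumour came near the controls. Bmp2 was 4.88-fold lower in tumours (log2 change -2.29, SE 0.18, adjusted p = 6.11e-06 in limma). Of 23 other genes of BMP signalling and of the iron hormone, 10 were lower, against 12.7% of all genes. Another 3 were higher, against 16.2%, and the median change was -0.23. Hamp, the hepcidin gene, fell by 2.41 on the log2 scale (SE 0.22), to 10.36 ± 0.51 in tumours, against 12.78 ± 0.12 in controls (SD, n = 4 each). Tfr2, a hepatocyte iron sensor, changed by -1.61 (SE 0.24), and the receptor gene Bmpr1a rose by 0.70 (SE 0.13). Hamp2, a second hepcidin gene of mice, changed by -1.43 (SE 0.41), which no longer passed when control 2 or tumour 1, 2 or 4 was left out (limma's adjusted p 0.0551 to 0.0620). Without tumour 1 or tumour 2 the list had 6 lower members. Hepatocyte genes were lower in the same tumours, where all 11 measured fell, against 12.7% of all genes. Changes were -6.38 for Cyp2e1, -5.71 for Tat and -3.78 for Apoc3, with a median of -0.81. The part of the fall of hepatocyte genes in the change of Hamp and Tfr2 was not tested.

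Gpr182 encodes an atypical chemokine receptor of sinusoidal and lymphatic endothelium. It read 6.12, 6.54, 6.45 and 6.40 in tumours, against 7.30, 7.44, 7.94 and 7.87 in controls. The groups did not overlap, and Gpr182 was 2.39-fold lower in tumours (log2 change -1.26, SE 0.16, adjusted p = 0.000166 in limma). Oit3 encodes a liver protein with a zona pellucida domain. It read 6.14, 6.37, 6.36 and 6.20 in tumours, against 6.85, 7.08, 7.49 and 7.67 in controls. Tumours and controls were again apart, by less than for the other genes that fell, and Oit3 was 2.01-fold lower in tumours (log2 change -1.01, SE 0.17, adjusted p = 0.00107 in limma). Against a change of 1.5-fold in place of 0, Oit3 did not pass (adjusted p = 0.149 in limma) and the other 6 did.

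The fall was set beside general endothelial genes, which are known from endothelium of many organs. Of 29 measured, 7 were lower, against 12.7% of all genes, and none higher, against 16.2% (9 and 1 at an unadjusted p under 0.05). Their median change was -0.05, and their mean was 6.64 ± 0.10 in tumours and 6.85 ± 0.15 in controls (SD of array means, n = 4 each). Esam, Exoc3l, Myct1 and Sox7 of this list were below the olfactory receptor level in both groups, Sox18 and Tie1 in controls and Clec14a in tumours. How far low signal limits the mean and median of the list was not tested, and endothelial content was not measured. The following 4 genes of the list were picked by name after their values were seen. Cdh5, the adhesion molecule of endothelial junctions, read 7.89, 7.18, 8.14 and 7.48 in tumours, against 7.46, 7.56, 8.06 and 7.82 in controls. Pecam1, the adhesion molecule CD31, read 7.27, 6.88, 7.70 and 6.88 in tumours, against 6.66, 6.61, 7.10 and 7.01 in controls. Tumours and controls overlapped for both, and neither passed (adjusted p = 0.894 for Cdh5 and 0.242 for Pecam1 in limma). Tek, the angiopoietin receptor, and Eng, endoglin, did pass, with changes of -0.76 (SE 0.25, adjusted p = 0.0444 in limma) and -0.52 (SE 0.17, adjusted p = 0.0402 in limma). The 3 largest falls in the list were Ptprb, the vascular endothelial phosphatase (-1.34, SE 0.20), Calcrl, a receptor of adrenomedullin (-1.30, SE 0.21), and S1pr1, a sphingosine-1-phosphate receptor (-1.24, SE 0.13). Without control 3, control 4 or tumour 2 the list had 4 lower members.

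When the mean of the general endothelial genes on each array was subtracted from every gene, the same 7 marker genes were lower, against 6.79% of all genes, and none was higher, against 22.5%. The subtraction moved the median over all genes to 0.18. Relative changes ran from -2.65 (SE 0.20) for Dnase1l3 and -2.49 (SE 0.15) for Clec4g to -1.05 (SE 0.15) for Gpr182 and -0.79 (SE 0.15) for Oit3, and the largest adjusted p of the 7 was 0.00099 in limma. Stab1 changed by -0.04 (SE 0.14), Mrc1 by -0.23 (SE 0.16) and Lyve1 by 0.43 (SE 0.19) relative to these genes, and none of the 3 passed. Without 1 array the Mrc1 value lay between -0.32 and -0.11. The Lyve1 value passed without tumour 1 (0.62, adjusted p = 0.0174 in limma). The same 7 were lower with Pecam1, Cdh5, Tie1 and Tek alone as the measure, where 1288 of 19937 genes were lower. Tek was itself lower in tumours, and Tie1 was below the olfactory receptor level in controls. Relative to the general endothelial mean, the same 7 were also lower without any 1 array, where 1179 to 1393 of all genes were lower.

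**Figure D2:**
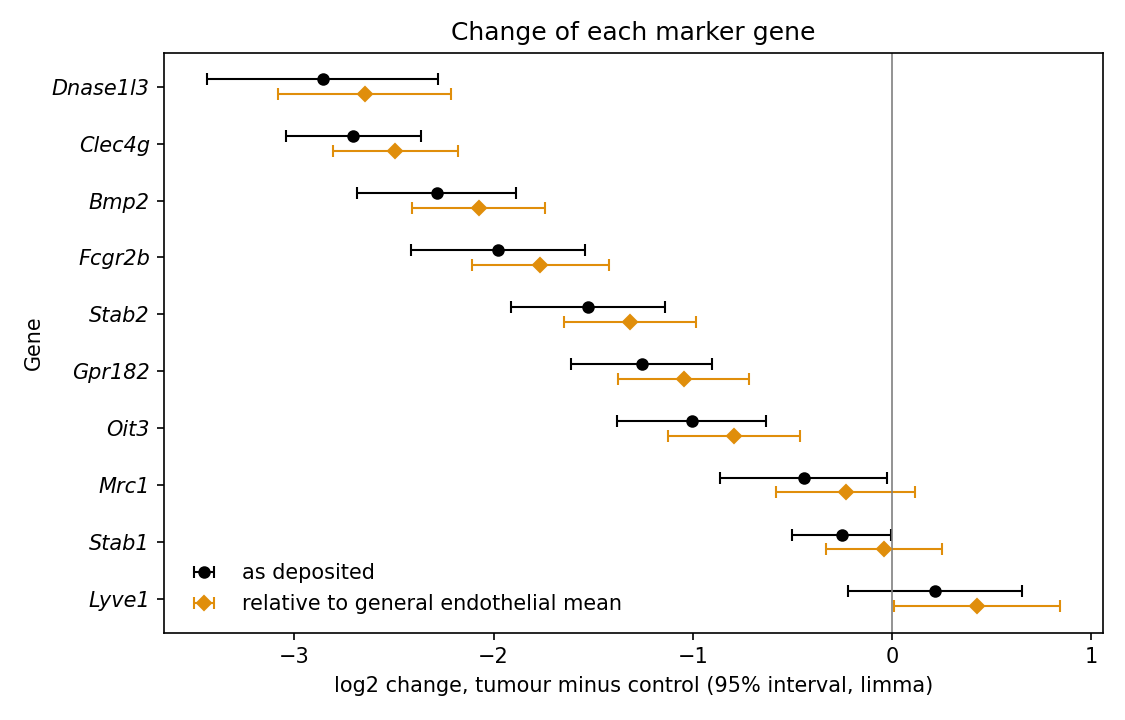
Log2 change, tumour minus control (horizontal axis), of each marker gene with its 95% interval from limma, as deposited (circles) and relative to the mean of 29 general endothelial genes on the same array (diamonds). The 7 genes from Dnase1l3 to Oit3 stay below 0 on both scales, while for Mrc1, Stab1 and Lyve1 the change did not pass on either.

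Of 20 other sinusoidal endothelial genes, 12 were lower, against 12.7% of all genes, and 2 higher, against 16.2%, with a median change of -0.51. Their mean was 6.83 ± 0.10 in tumours and 7.64 ± 0.16 in controls (SD of array means, n = 4 each). Dpp4, a peptidase that hepatocytes and lymphocytes make too, changed by -3.21 (SE 0.17), Adam23, a membrane protein of the ADAM family, by -2.72 (SE 0.17), and Plpp3, a lipid phosphatase, by -2.22 (SE 0.34). Tfpi, the inhibitor of the tissue factor pathway, rose by 1.38 (SE 0.24). F8, coagulation factor VIII, which mice make in liver endothelium, is outside the rule for named genes and was singled out after its values were seen. It read 6.61, 7.09, 7.43 and 7.16 in tumours, against 8.76, 9.19, 9.49 and 8.78 in controls, and it fell by 1.99 on the log2 scale (SE 0.20).

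Continuous capillaries with a basement membrane are a vessel type that differs from sinusoids. The list read here, called continuous capillary genes for short, mixes genes of such vessels, of sprouting endothelium and of basement membrane. Not all are made by endothelium alone, and which cells or vessels the changes come from was not tested. Of the 18 genes measured, 9 were higher, against 16.2% of all genes, 1 was lower, against 12.7%, and 8 did not pass. Their median change was 0.52, and their mean was 7.33 ± 0.14 in tumours and 6.58 ± 0.15 in controls (SD of array means, n = 4 each). Fabp4, a fatty acid binding protein of capillary endothelium, adipocytes and macrophages, rose by 2.64 (SE 0.27). Esm1, a product of sprouting endothelium, read 7.65, 6.41, 7.70 and 7.07 in tumours, against 5.29, 5.30, 5.28 and 5.26 in controls, where its signal, like that of Cd34, was at the level of olfactory receptor genes. Esm1 rose by 1.93 (SE 0.24), and the tumours were spread far more widely than the controls. Lamc1, a laminin chain, rose by 1.55 (SE 0.12). Cd34, a sialomucin of continuous endothelium named here after its values were seen, read 7.26, 6.59, 7.46 and 7.24 in tumours, against 5.54, 5.63, 5.90 and 5.78 in controls, and it rose by 1.42 (SE 0.18). Vwf, von Willebrand factor, was the 1 lower member (-0.31, SE 0.10), which no longer passed when control 2, 3 or 4 or tumour 1, 2 or 3 was left out (limma's adjusted p 0.0588 to 0.0951). Relative to the general endothelial mean, 12 of the 18 were higher, against 22.5% of all genes, and 0 lower, against 6.79%.

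**Figure D3:**
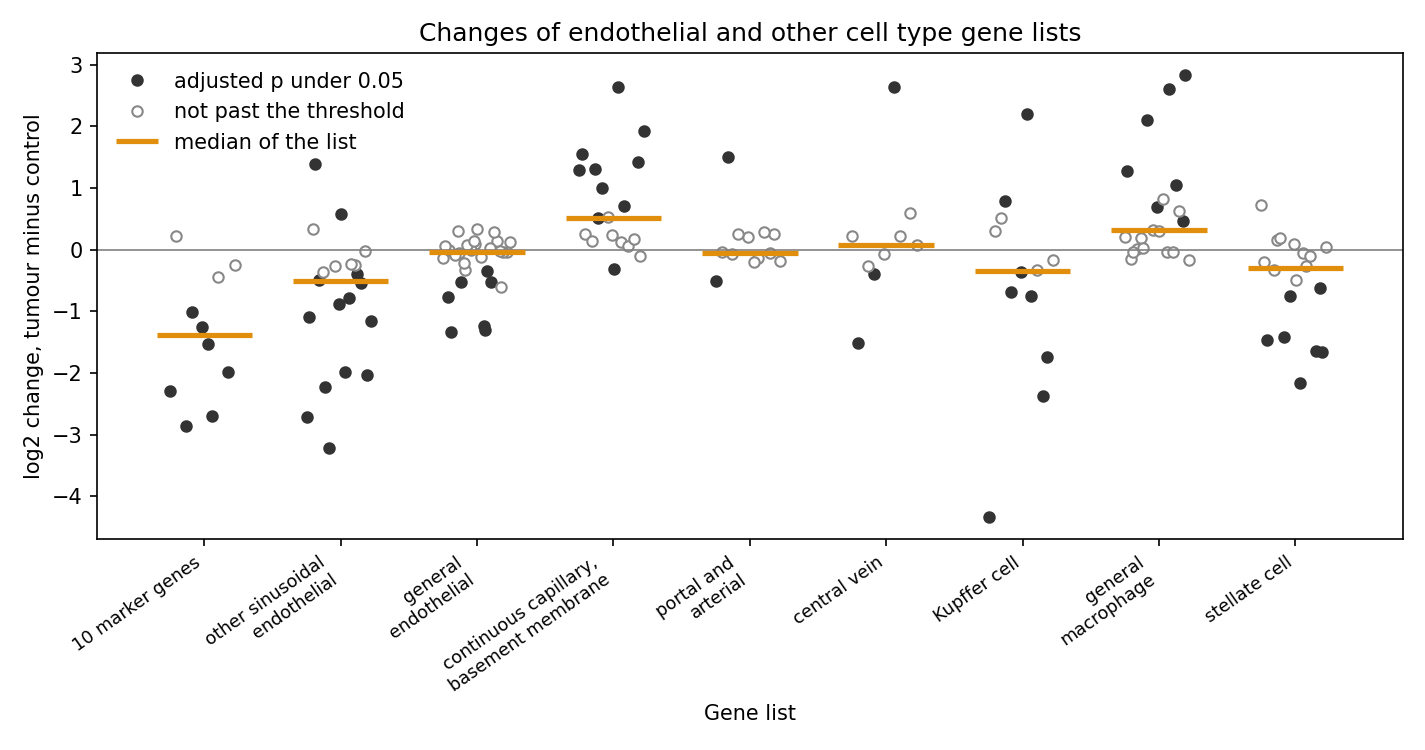
Log2 change, tumour minus control (vertical axis), of every measured gene of 9 lists (horizontal axis). Filled points passed an adjusted p of 0.05 in limma, open points did not, and bars give the median of the list, which was -1.39 for the 10 marker genes, -0.51 for other sinusoidal, -0.05 for general endothelial and 0.52 for continuous capillary genes.

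Lists of larger liver vessels and of regulators of sinusoidal endothelium held both lower and higher genes. Over all genes 12.7% were lower and 16.2% higher, and such small counts are not read as a result about the lists. Among 12 portal and arterial genes 1 was higher, Mgp, a matrix protein (1.49, SE 0.37), and 1 lower, Adgrg6, an adhesion receptor (-0.52, SE 0.16), with a median of -0.05. Adgrg6 no longer passed when control 2, 3 or 4 or tumour 1, 2 or 3 was left out (limma's adjusted p 0.0564 to 0.0978). The list had 2 lower genes without tumour 4 and 2 higher genes without control 1 or 3. Among 9 central vein genes Rspo3, which amplifies WNT signals to hepatocytes, fell by 1.52 (SE 0.13). Wnt2, a WNT ligand also in the other sinusoidal list, changed by -0.39 (SE 0.11). Fabp4, also in the central vein list, was higher, and the median of the 9 genes was 0.07. Wnt2 did not pass when control 2, 3 or 4 or tumour 1, 2 or 3 was left out (limma's adjusted p 0.0528 to 0.0620), and without tumour 2 the list had 2 higher genes. Among 15 regulators 5 were lower and 1 higher, with a median of -0.15. Gdf2 and Bmp10, which encode the ligands BMP9 and BMP10, changed by -0.98 (SE 0.13) and -0.69 (SE 0.13). Meis2, a homeobox factor, changed by -0.95 (SE 0.21), and Rbpj, the nuclear effector of Notch, rose by 0.48 (SE 0.13), which did not pass when control 2 or tumour 2 or 3 was left out (limma's adjusted p 0.0597 to 0.0623) and was 0.16 with the mean of its probe sets. Without tumour 1 the regulators had 2 higher genes. Gata4, a factor needed for sinusoidal endothelium in mice and named after its values were seen, did not pass, at 7.61 ± 0.02 in tumours and 7.78 ± 0.17 in controls (SD, n = 4 each; change -0.17, SE 0.10, adjusted p = 0.258 in limma).

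Of 23 other scavenger and endocytic receptor genes, 9 were lower, against 12.7% of all genes, and 2 higher, against 16.2%, with a median of -0.16. Asgr1, the asialoglycoprotein receptor of hepatocytes, changed by -2.78 (SE 0.26), and Colec12, a scavenger receptor with a collagen domain, by -2.25 (SE 0.24). Cd68, a lysosomal protein of macrophages, rose by 2.11 (SE 0.26).

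Markers of other liver cells that share some of the 10 genes were read on the same arrays. Of 20 general macrophage genes 7 were higher, against 16.2% of all genes, and none lower, against 12.7% (8 and 0 at an unadjusted p under 0.05). Their median change was 0.31, and their mean was between 7.61 and 8.14 in tumours, against 6.86 to 7.55 in controls. Ms4a7 rose by 2.83 (SE 0.34) and Lyz2, lysozyme, by 2.61 (SE 0.36). Of 12 Kupffer cell genes 6 were lower, against 12.7% of all genes, and 2 higher, against 16.2%. Their median change was -0.35, and their mean was between 7.17 and 7.56 in tumours, against 7.81 to 7.998 in controls. C6, a complement gene that hepatocytes also make, changed by -4.34 (SE 0.61), Vsig4, a complement receptor, by -2.38 (SE 0.50), and Spic, a factor of iron-handling macrophages, rose by 2.19 (SE 0.16). Relative to the general endothelial mean, 4 Kupffer cell genes were lower, against 6.79% of all genes, and 4 higher, against 22.5%. The higher Kupffer cell genes were 1 without control 2 or 4 or tumour 1 or 3. The part of these cells in the values of Mrc1, Stab1, Lyve1 and Fcgr2b was not tested.

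Of 18 stellate cell genes 7 were lower, against 12.7% of all genes, and none higher, against 16.2% (8 and 1 at an unadjusted p under 0.05). Their median change was -0.30. The largest falls were in Hgf (-2.16, SE 0.28), Reln (-1.66, SE 0.13) and Lrat (-1.64, SE 0.28), which encode hepatocyte growth factor, reelin and the enzyme that stores vitamin A. Without control 4, 1 stellate cell gene was higher. Of 6 lymphatic endothelial genes 2 were lower, against 12.7% of all genes, Reln again and Flt4, also in the other sinusoidal list (-0.54, SE 0.13). None was higher, against 16.2% (3 lower and 0 higher at an unadjusted p under 0.05), and the median was -0.24. Of 9 lymphocyte genes none passed in limma in either direction, against 28.9% of all genes, and none did at an unadjusted p under 0.05. Their median was 0.03 and their largest change was that of Cd3g (-0.45, SE 0.34), which was -0.73 without control 1 and -0.13 without control 3. Of 5 bile duct genes Epcam rose by 0.88 (SE 0.17) and Sox9 changed by -0.32 (SE 0.10), with a median of -0.11. Sox9 passed with tumour 4 left out but not with any other array left out (limma's adjusted p 0.0532 to 0.113).

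Within each group the marker genes tended to go together. Control 1 was the lowest of the 4 controls for all 10 genes, against 27% of all genes, and its deviation from the control mean ranged from -0.76 for Dnase1l3 to -0.14 for Stab1, with a mean of -0.40. Controls 3 and 4 were the high ones, with mean deviations of 0.22 and 0.24. Tumour 1 was the lowest of the 4 tumours for 9 of the 10 genes, all but Bmp2, against 29.2% of all genes, with a mean deviation of -0.21. The stellate, Kupffer cell and macrophage lists were low in tumour 1 too, with mean deviations of -0.20, -0.17 and -0.10. Tumour 3 was above the tumour mean for all 10, while 54.9% of all genes were below it there. The macrophage, stellate, Kupffer cell and other sinusoidal lists were high in tumour 3 too, with mean deviations of 0.33, 0.25, 0.23 and 0.15. The SD was larger among controls than among tumours for 8 of the 10 genes, against 48.8% of all genes, the exceptions being Stab2 and Lyve1. Among the 8, the tumour means of Dnase1l3 and Bmp2 were below the olfactory receptor level, and those of Clec4g, Fcgr2b and Oit3 little above it. How far low signal limits the spread among tumours was not tested. In control 1 the general endothelial genes also lay 0.21 below the control mean and the other sinusoidal genes 0.23 below it, while the median deviation over all genes was -0.01. Without control 1 the changes of the 7 genes that fell ranged from -3.11 for Dnase1l3 to -1.14 for Oit3. Each was larger in size than with it, which had to follow because control 1 was the lowest control for each gene.

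**Figure D4:**
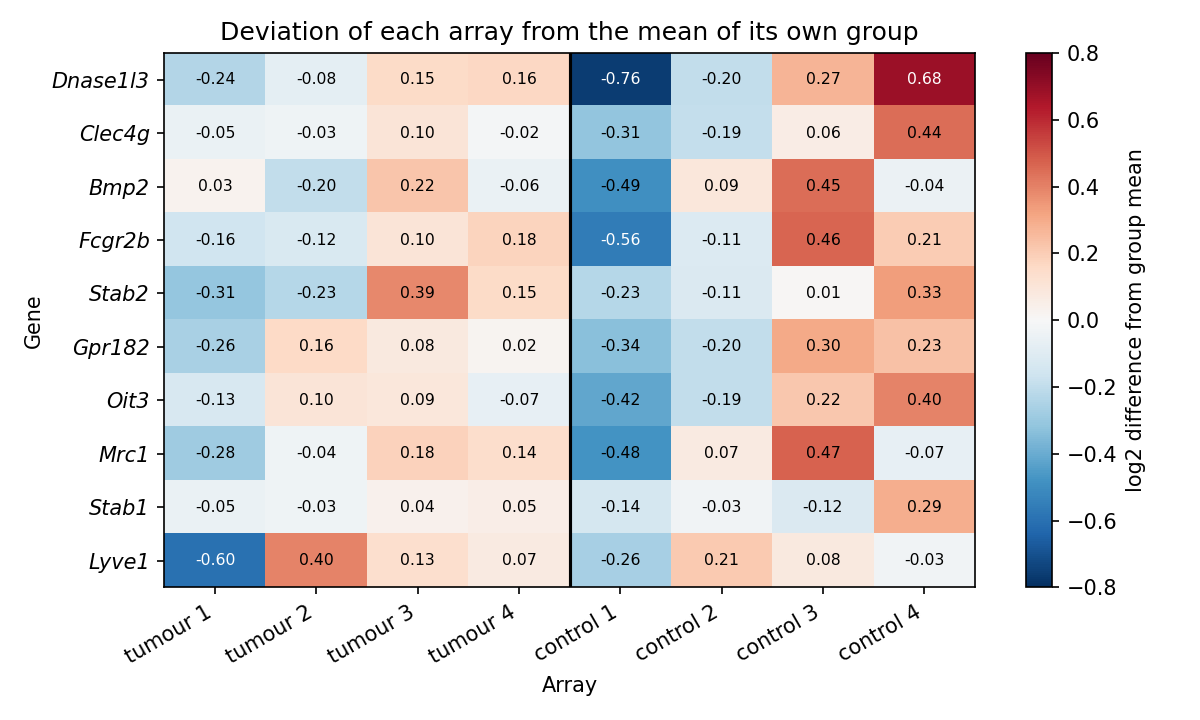
Deviation of each array (columns) from the mean of its own group, in log2 units, for the 10 marker genes (rows), with tumours to the left of the line and controls to the right. Control 1 is below its group mean for all 10 genes, tumour 3 is above its group mean for all 10, and the deviations reach -0.76 for Dnase1l3 in control 1.

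The genes outside the list with values closest to the mean pattern of the 10 over the 8 arrays, by the root mean square difference of values centred on each gene's own mean, were Ptprb (0.11), Tmem53 (0.12), Dmgdh (0.12), Aldh6a1 (0.13) and Acy3 (0.13). Ptprb read 7.12, 7.18, 7.55 and 7.33 in tumours, against 8.03, 8.68, 8.87 and 8.97 in controls. These genes were chosen for their likeness over the same 8 arrays, so their shared pattern is a description only.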

How the data were processed

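The deposited table holds log2 values for 34760 probe sets on 8 arrays, which the authors made with RMA in R 3.0.2, per the submitters' processing notes. The genome build and the RMA settings are not given in the sources used here. Probe sets were named with the platform annotation, 22961 with a gene and 11799 without. Of these 1321 had several symbols and were left out, and 21640 had 1 symbol, 21553 of them matched to RefSeq by gene identifier. The probe set with the highest mean was kept per gene. Tumours and controls were compared with limma 3.58.1 (lmFit and eBayes, R 4.3.3), group as the only term, with Benjamini-Hochberg adjustment over all 19937 genes and a threshold of 0.05. With 4 arrays per group the precision of the changes is limited.

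The 10 genes and the 16 gene lists were chosen with earlier results of these data known. The lists cover endothelial vessel types, regulators, BMP and iron genes, scavenger and Fc receptors and other liver cells. Named genes are the 10 marker genes, from each list the 3 largest changes that passed and the largest in the rarer direction (where none passed, the largest change), and the 5 genes closest in pattern. The fit was tested on simulated data of 19937 genes with the spread of this comparison and 200 changed genes. It recovered 54%, 90%, 98% and 100% of those changed by 0.5, 1, 2 and 4 on the log2 scale. Alternatives were quantile normalisation, median centring, leaving out dim genes, array weights, robust variances with an intensity trend, a replicate block, averaged probe sets, a test against 1.5-fold, the general endothelial mean subtracted, and leaving out each array. Promoter windows came from RefSeq, and 5 marker genes had one. Protein identity was not analysed here. Counts and medians were taken in pandas 2.3.3 under Python 3.11.15, and matplotlib 3.10.9 drew the plots.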

Additional observations from a re-analysis of the deposited data

Results flagged for a closer look

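Over 148 groups of 4 arrays, 6 values stood apart from the other 3 of their group by more than Dixon's critical gap at the 95% level, where chance gives about 1 in 20 groups. None was a value of the 10 marker genes. The mean of the other sinusoidal endothelial genes was 6.98 in tumour 3, against 6.77 to 6.78 in the other tumours. The mean of the continuous capillary genes was 6.35 in control 1, against 6.64 to 6.67 in the other controls. Tfpi read 8.22 in tumour 1 and 9.26 to 9.41 in the other tumours. Hamp2 read 8.30 in 1 tumour and 7.55 to 7.60 in the others. Ms4a7 read 8.93 in 1 tumour and 7.10 to 7.39 in the others. C6 read 7.90 in 1 control and 10.91 to 11.17 in the others.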

How the results depend on the processing

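Over 17 alternatives, 167 of 170 values of the 10 marker genes kept their direction and their side of the threshold. Oit3 did not pass against a 1.5-fold change (-1.01, adjusted p = 0.149 in limma). Mrc1 passed with the replicate block (-0.44, adjusted p = 0.0394) and without control 1, and leaving out each array gave -0.60 to -0.29. The replicate numbers are not used as pairs, since same-numbered deviations correlated at -0.06, 0.01, 0.06 and -0.32, and the replicate block changed no other call among the 10 genes. Against 1.5-fold, 5 other sinusoidal genes were lower and 1 higher, 3 general endothelial genes were lower, and 5 continuous capillary genes were higher and 0 lower. Without 1 array, 4 to 8 general endothelial genes were lower, and 0 to 1 continuous capillary genes, a count that was also 0 with the replicate block and with the endothelial mean subtracted. With that mean subtracted 4 general endothelial genes were lower, against 6.79% of all genes, and 3 higher, against 22.5%. The subtraction fixes the mean change of these 29 genes in advance, so these counts are no test of them. The Stab1 change relative to them ranged from -0.11 to 0.019 (without control 4) when 1 array was left out. For other lists and genes 1214 of 1343 values were as reported, 56 calls were lost and 71 counts moved by more than 1.5 times. Over all genes 5757 passed, against 1719 in a test against 1.5-fold. With Pecam1, Cdh5, Tie1 and Tek in place of 29 genes as the endothelial measure 3750 passed, against 5839. The cause of these shifts was not tested. In tumours Dnase1l3 and Bmp2 gave no more signal than olfactory receptor genes at their 95th percentile, so the depth of their fall cannot be read below that level. Clec4g, Fcgr2b and Oit3 were little above that level in tumours (6.15, 6.19 and 6.26), and how far it limits their fall was not tested.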
